A study of Homo sapiens with 4 samples.

Results

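The 6 GATA transcription factor genes, GATA1 to GATA6, were selected by their gene symbols from the 20242 promoters at which histone marks were measured in JMJD3c-hESCs. Each gene had 1 promoter value per library. GATA2, GATA3 and GATA6 carried both trimethylated lysine 27 (H3K27me3) and trimethylated lysine 4 (H3K4me3) of histone H3 in untreated cells, and all 3 still carried both marks after induction of the demethylase. GATA4 was marked by H3K27me3, GATA5 by H3K4me3, and GATA1 by neither. The GATA4 values come from an alternative start 27243 bp upstream of the canonical one, so the canonical GATA4 promoter was not measured. H3K27me3 at GATA2, GATA3, GATA4 and GATA6 was 0.755 to 1.09 times its untreated level, and the median over all bivalent promoters was 0.570 times. At bivalent promoters with H3K27me3 of at least 100, the level of GATA2 and GATA6, the median log2 ratio was −0.22. GATA2 itself was at −0.27 and GATA6 at 0.13. GATA3, at −0.41, belongs to the bivalent promoters between 50 and 100, whose median was −0.73.

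JMJD3c-hESCs are a stable derivative of SEES-3, an established human embryonic stem cell line, carrying a doxycycline (Dox)-inducible, HA-tagged JMJD3c in a piggyBac vector. JMJD3c is the catalytic part of JMJD3, which removes methyl groups from H3K27. Chromatin immunoprecipitation sequencing (ChIP-seq) was done with antibodies against H3K27me3 and H3K4me3, once in cells kept without Dox (−Dox) and once in cells treated with 1 µg/ml Dox (+Dox), both harvested at day 3, with 1 library in each of the 4 groups. Both groups carried the transgene, and no Dox-treated cells without it were analysed here, so effects of Dox itself and of JMJD3c cannot be told apart. Without replicates, no test was made.

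GATA factors are zinc finger proteins named after the DNA sequence that they bind. GATA1, GATA2 and GATA3 are best known from blood formation, GATA2 and GATA3 also act in the trophectoderm, and GATA4, GATA5 and GATA6 act in the heart and the endoderm, so that the family as a whole belongs to differentiated lineages. H3K27me3 is deposited by Polycomb complexes, mainly at CpG-rich promoters of silent developmental genes, H3K4me3 marks active or poised promoters, and promoters with both are called bivalent and are typical of developmental regulators in pluripotent cells.

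Values are signal, namely sequencing coverage that the authors scaled per library read and added up within 3 kb of a transcription start site (TSS) in either direction. The threshold of the study's methods, 20, was used to call a promoter marked, and it corresponded to about 15.8 to 20.8 reads. Median signal was 6.09 (−Dox) and 5.97 (+Dox) for H3K27me3, and 41.3 and 38.8 for H3K4me3. Of all promoters, 11.0% (−Dox) and 6.73% (+Dox) were above 20 for H3K27me3, and 63.7% and 62.7% for H3K4me3. Of the 9 pluripotency markers examined, 8 were above 20 for H3K4me3 in both conditions and none was above 20 for H3K27me3, while POU5F1, whose deposited TSS lay 10049 bp from its canonical one, was unmarked. H3K4me3 summed over the markers was 1063 in −Dox and 969 in +Dox for pluripotency, 250 and 269 for 6 mesendoderm and endoderm markers, 104 and 88.7 for 4 trophectoderm and amnion markers, and 174 and 180 for 4 fibroblast markers. Of the fibroblast markers, 3 of 4 were above 20 for H3K4me3 in both conditions, near the share over all promoters. The mark alone therefore does not identify a cell type. The part of other cells in the values below was not tested. In such bulk measurements, fewer cells with a mark and less of the mark per cell cannot be told apart.

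H3K27me3 is mainly found at CpG-rich promoters, and the GATA promoters differ in how densely they are packed with CpG dinucleotides, which is why a 200-base stretch upstream of 3 of the TSSs is shown here 5′ to 3′ along the gene, from the GRCh37 assembly, with each CG in capitals. The stretch of GATA1, the unmarked member, is chrX:48644748-48644947 (+ strand), ends 51 bp before the TSS and holds 4 CpG. The stretch of GATA3, which is bivalent, is chr10:8096451-8096650 (+ strand), ends 1 bp before the TSS and holds 18 CpG. The stretch of GATA6, which has the highest H3K27me3 of the family, is chr18:19749170-19749369 (+ strand), ends 181 bp before the TSS and holds 16 CpG. To clear an annotated exon of GATA6-AS1, the antisense gene in the window, this stretch was placed further upstream.
GATA1: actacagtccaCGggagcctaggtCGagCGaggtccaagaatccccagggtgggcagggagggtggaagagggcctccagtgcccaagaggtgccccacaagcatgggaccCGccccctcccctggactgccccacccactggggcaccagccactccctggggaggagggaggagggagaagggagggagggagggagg
GATA3: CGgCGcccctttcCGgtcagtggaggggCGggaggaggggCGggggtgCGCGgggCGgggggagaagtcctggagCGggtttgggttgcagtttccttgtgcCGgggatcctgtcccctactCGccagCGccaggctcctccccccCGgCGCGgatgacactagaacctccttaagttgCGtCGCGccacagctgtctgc
GATA6: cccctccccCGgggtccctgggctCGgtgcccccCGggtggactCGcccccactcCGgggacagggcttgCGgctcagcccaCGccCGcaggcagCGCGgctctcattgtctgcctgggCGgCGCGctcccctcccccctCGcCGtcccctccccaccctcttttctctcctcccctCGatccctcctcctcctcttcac

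Over the whole measured window of 3 kb on each side, the GATA1 window (chrX:48641998-48647998) held 73 CpG, more than 15.7% of all windows. The GATA2 window (chr3:128209044-128215044) held 265 CpG, more than 89.6% of all windows. The GATA3 window (chr10:8093651-8099651) held 358 CpG, more than 98.0% of all windows. GATA1 therefore stood among the CpG-poor promoters, for which the median of the unmarked class was 79, while GATA2 and GATA3 were above the bivalent median of 219. The GATA5 window (chr20:61048051-61054051) held 400 CpG, more than 99.0% of all windows. The GATA6 window (chr18:19746550-19752550) held 476 CpG, more than 99.8% of all windows. CpG density and H3K27me3 did not go together at GATA5, which had the second most CpG of the family and no H3K27me3 above 20. Among the 184 windows with at least as many CpG as GATA5, 71 (38.6%) were above 20 for H3K27me3 in −Dox and 56 (30.4%) were at or below the value of GATA5.

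**Figure D1:**
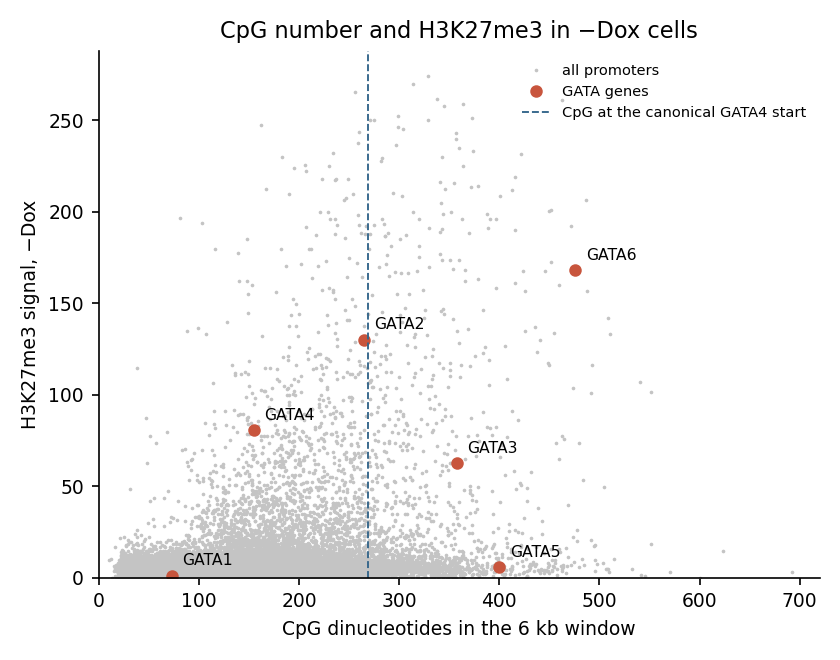
Number of CpG dinucleotides in the 6 kb promoter window (x axis) against H3K27me3 signal in −Dox (y axis) for all promoters matched to the annotation, with the 6 GATA genes named and a dashed line at the CpG number around the canonical GATA4 TSS. GATA6 and GATA5 lie to the right with 476 and 400 CpG, at H3K27me3 signals of 168 and 5.70, and GATA1 lies to the left with 73 CpG.

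What each window covers was read from the gene annotation, since 1 transcript stood for each gene. For GATA1, GATA2, GATA3, GATA5 and GATA6, the deposited TSS was the canonical one (0 bp apart). All 6 annotated TSSs of GATA1, both TSSs of GATA6 and the single TSS of GATA5 lay inside their windows. For GATA2, 7 of 13 annotated TSSs lay inside, and a downstream TSS of 2 transcripts, 4671 bp away, did not. For GATA3, 3 of 5 lay inside. The exons of the gene itself made up 16.6% of the window for GATA2, 16.5% for GATA3, 13.1% for GATA5 and 24.0% for GATA6, and the antisense genes GATA2-AS1, GATA3-AS1 and GATA6-AS1 overlapped the windows of their partners. None of these antisense genes had a value of its own, and histone marks carry no strand, so the signal there belongs to both genes.

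GATA4 is the exception. Its deposited TSS, at position 11534468 of chromosome 8 on the + strand, lay 27243 bp upstream of the canonical TSS at 11561711, and the window (chr8:11531468-11537468) held 2 of its 8 annotated TSSs. The window measured had 155 CpG, close to the median of 156 over all promoters, whereas the 6 kb around the canonical TSS has 269 CpG. Within the 250 bases upstream, the counts were 3 CpG at the deposited TSS and 23 at the canonical one. No other matched promoter of the data has its TSS within 84428 bp of the one deposited for GATA4, so the canonical GATA4 promoter was not measured, and the GATA4 values below are those of an alternative upstream promoter.

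GATA6, a factor of the primitive and definitive endoderm and of the heart, had the strongest H3K27me3 of the family, at 168 in −Dox (about 133 reads) and 183 in +Dox (about 147 reads). It held place 137 of all 20242 promoters in −Dox and place 117 in +Dox, and its ratio of 1.09 (95% interval 0.854 to 1.38) left it in the topmost range in both libraries. Of the bivalent promoters, 91.0% had a lower H3K27me3 ratio. Its H3K4me3 was 52.4 in −Dox and 38.8 in +Dox, with a ratio of 0.740 (0.468 to 1.19). This was the lowest H3K4me3 ratio in the family, but its interval included 1, and 27.4% of bivalent promoters had a lower one. The intervals here and below are exact Clopper-Pearson intervals on approximate reads, cover counting error only, and compare 2 libraries rather than 2 conditions.

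GATA2, needed for blood stem and progenitor cells and active in the trophoblast, had H3K27me3 of 130 in −Dox and 108 in +Dox. The ratio was 0.828 (0.617 to 1.12), and its place among all promoters moved only from 227 to 239. Before Dox, its H3K27me3 was higher than that of 91.5% of bivalent promoters. H3K4me3 at GATA2 was 21.7 in −Dox and 21.6 in +Dox, just above the threshold of 20 in both libraries, with a ratio of 0.999 (lower bound 0.506) and an interval that included 1. The 95% counting intervals of these H3K4me3 signals, 13.3 to 32.1 in −Dox and 12.5 to 34.4 in +Dox, included 20, so the bivalent call at GATA2 is not separated from the threshold by counting error.

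GATA3, a regulator of T cell development and of the trophectoderm, had less H3K27me3, at 62.8 in −Dox and 47.4 in +Dox. Its ratio of 0.755 (0.477 to 1.16) was the lowest of the family, yet 71.2% of bivalent promoters had a lower ratio. H3K4me3 at GATA3 was 51.0 in −Dox and 61.5 in +Dox, with a ratio of 1.21 (0.806 to 1.82). Neither mark at GATA3 moved beyond counting error.

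GATA4, a factor of heart and endoderm development, had H3K27me3 of 80.6 in −Dox and 71.6 in +Dox at its upstream promoter, a ratio of 0.888 (0.602 to 1.27). Its place among all promoters was 512 in −Dox and 387 in +Dox. H3K4me3 there was 10.3 in −Dox and 10.1 in +Dox, with a ratio of 0.981 (0.333 to 2.60). The upstream promoter was therefore H3K27me3-only in both conditions.

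GATA5, which acts in the endocardium and the endoderm, was the member with the largest H3K27me3 ratio. H3K27me3 was 5.70 in −Dox (about 4.5 reads) and 16.4 in +Dox (about 13.2 reads), and the ratio was 2.88 (0.855 to 9.16). At this depth the interval included 1, and both values were below 20. In order among all promoters it moved from place 10899 to place 1653. Of the 107 H3K4me3-only windows with at least as many CpG as GATA5, GATA5 itself among them, 7 (6.54%) had at least its H3K27me3 in +Dox. H3K4me3 at GATA5 was 31.9 in −Dox and 32.8 in +Dox, with a ratio of 1.03 (0.594 to 1.78).

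GATA1, the master regulator of red blood cells and megakaryocytes, had H3K27me3 of 1.14 in −Dox and 1.49 in +Dox. Both lie under the signal of 3 reads, 3.80 and 3.74, so no ratio is given. H3K4me3 was 0.285 in −Dox, less than the signal of 1 read, and 7.83 in +Dox, about 6.2 reads. The interval of the ratio had a lower bound of 1.55 and no upper bound, and set against the signal of 3 reads in the −Dox library, 2.89, the +Dox value was 2.71 times as high. The GATA1 promoter stayed unmarked in both conditions. Of the unmarked promoters with −Dox signal above 0, 1.62% had an H3K4me3 interval above 1, and of 792 promoters with less than 1 read of H3K4me3 in −Dox, 29 (3.66%) reached the +Dox value of GATA1. Unlike GATA1, 564 of the 792 were at 0 in −Dox, and some, such as AMY1A, were at 0 in all 4 libraries. The 3.66% was not limited to promoters with signal in any library.

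**Figure D2:**
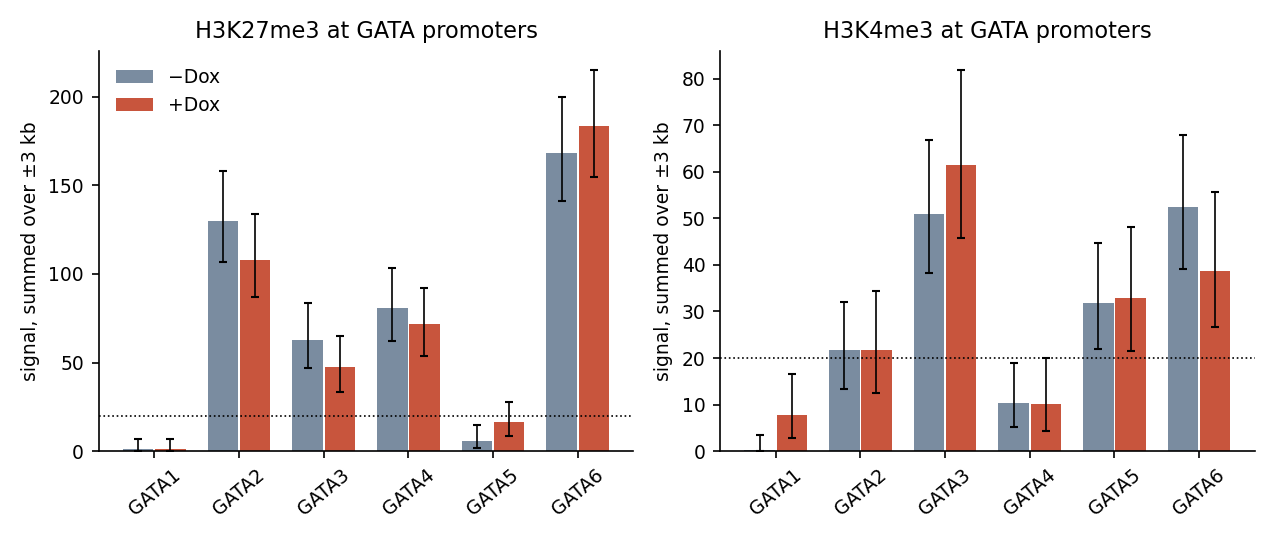
Signal of H3K27me3 and H3K4me3 at the 6 GATA promoters in −Dox and +Dox, 1 library each, as bars from 0 with 95% Poisson intervals of the approximate reads and a dotted line at the threshold of 20. GATA6, GATA2, GATA4 and GATA3 stand above the line for H3K27me3 in both conditions, and GATA6, GATA3, GATA5 and GATA2 for H3K4me3.

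In −Dox, H3K27me3 was ordered GATA6, GATA2, GATA4, GATA3, GATA5, GATA1. GATA6 and GATA2 were not separated by counting error (ratio 1.29, 0.991 to 1.69), GATA2 was above GATA4 (1.61, 1.17 to 2.23), GATA4 and GATA3 were not separated (1.28, 0.870 to 1.89), and GATA3 was above GATA5 (11.0, 4.01 to 32.1). The order was the same in +Dox. There GATA6 was above GATA2 (1.70, 1.29 to 2.23), and GATA4 and GATA3 were again not separated (1.51, 0.978 to 2.32). GATA3 was above GATA5 in +Dox too (2.89, 1.52 to 5.98), and this interval overlapped that in −Dox. H3K4me3 in −Dox was highest at GATA6 and GATA3, which were not separated (1.03, 0.684 to 1.52), and GATA3 was above GATA5 (1.60, 1.02 to 2.56). In +Dox, no neighbours in the H3K4me3 order were separated by counting error.

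None of the 6 members had an H3K27me3 ratio below 0.66, a looser limit that the study used, whereas 33.6% of all promoters with −Dox signal did. GATA1, with about 1 read in each H3K27me3 library, cannot be placed against such ratio limits. For the bivalent class the share below 0.66 was 61.4%, against 0 of the 3 bivalent GATA genes. The share depended on the starting level. It was 26.6% among bivalent promoters with H3K27me3 of at least 100, where GATA6 and GATA2 belong. It was 59.7% among those between 50 and 100, where GATA3 belongs. Among H3K27me3-only promoters, the class of the measured GATA4 promoter, it was 55.5%. With 1 to 3 members in each class, no difference from these shares can be shown. Only GATA5 had a ratio above 1.5, a size reached by 24.4% of all promoters and by 28% of H3K4me3-only ones.

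Counting error was the other yardstick. No GATA gene had an H3K27me3 interval that excluded 1. Of the bivalent promoters, 48.5% had an interval below 1, and of the H3K4me3-only promoters, 1.4% had an interval above 1. An interval below 1 was found at 105 of 304 bivalent promoters with H3K27me3 of at least 100, the level of GATA2 and GATA6. Between 50 and 100, the level of GATA3, it was found at 300 of 519. The median log2 H3K27me3 ratio was −0.27 over the 3 bivalent GATA genes, −0.81 over all bivalent promoters and −0.22 over bivalent promoters with H3K27me3 of at least 100. Over bivalent promoters between 50 and 100, where GATA3 belongs, it was −0.73. Over all 6 members it was −0.02, and −0.17 without GATA1, whose ratio rests on about 1 read in each library, against −0.15 over all promoters.

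For H3K4me3, no member was below 0.66 and GATA1 alone was above 1.5, against 11.7% and 11.6% of all promoters. The median log2 H3K4me3 ratio was 0.02 over the 6 members, −0.002 without GATA1 and −0.03 over all promoters. Holding GATA1 at its value against 3 reads could not move the median, since GATA1 stayed the highest member. All 6 members kept their class from −Dox to +Dox, as did 92.2% of all promoters. The 3 bivalent members remained bivalent, as did 51% of bivalent promoters. That share is not matched for level, since the median −Dox H3K27me3 was 43.0 over bivalent promoters and the 3 members started at 62.8 to 168.

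**Figure D3:**
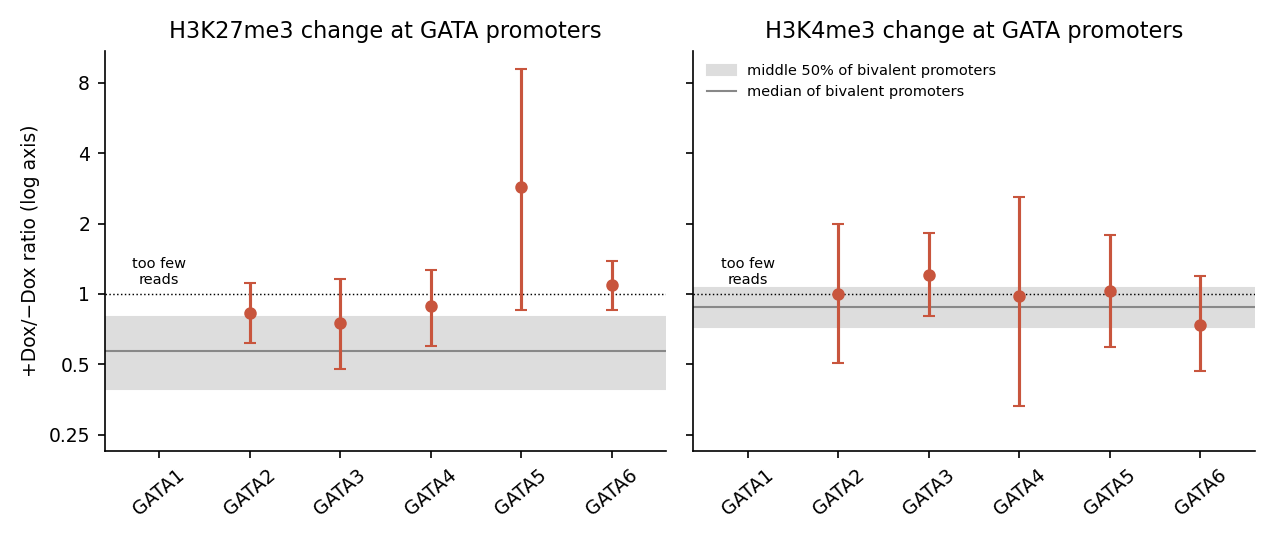
The +Dox/−Dox ratio of each mark at the GATA promoters on a log axis, with 95% Clopper-Pearson intervals, and a grey band for the middle 50% of bivalent promoters (0.393 to 0.795 for H3K27me3, 0.722 to 1.06 for H3K4me3). The H3K27me3 ratios of GATA2, GATA4, GATA5 and GATA6 lie above the band and that of GATA3, 0.755, inside it. The band is not matched for starting level, and GATA4 and GATA5 are not bivalent. At bivalent promoters with H3K27me3 of at least 100, the level of GATA2 and GATA6, the median log2 ratio was −0.22, and GATA2 was at −0.27.

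**Figure D4:**
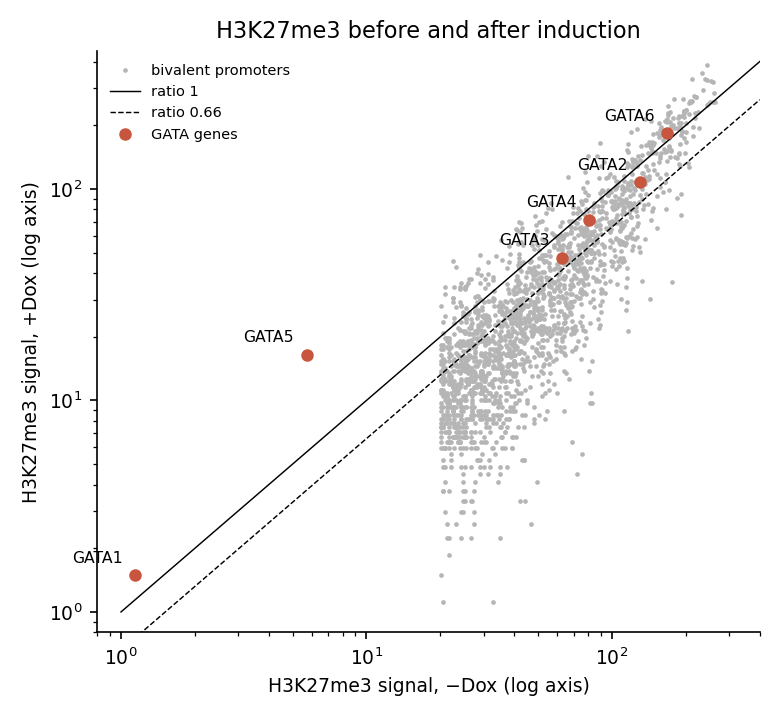
H3K27me3 signal in −Dox (x axis) against +Dox (y axis), both log axes, for the 1907 bivalent promoters in grey and the GATA genes named. GATA2, GATA3, GATA4 and GATA6 lie near the line of equal signal, most grey points lie below it, and GATA5 lies above it at 5.70 and 16.4.

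The ratios rest on the scaling to library reads. When both H3K27me3 libraries were given the same total over promoters, each ratio was multiplied by 1.18, a log2 shift of 0.23. GATA4 then crossed 1, at 1.04. GATA6 reached 1.28 (1.00 to 1.63) and GATA5 3.38 (1.01 to 10.8), both with a lower bound just above 1. GATA2, at 0.975, and GATA3, at 0.888, stayed below 1. The direction of the H3K27me3 difference at GATA4 therefore depends on the scaling, and so does the reading of GATA5 and GATA6 against counting error. For H3K4me3 the same step multiplied ratios by 1.03, and GATA2 and GATA4 moved from just below 1 to 1.02 and 1.01.

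The promoters most like each marked GATA gene were sought by the root of the summed squared differences of log2(signal + 1) over the 4 libraries. FOXA1, with H3K27me3 of 137 and 105 and H3K4me3 of 23.9 and 20.5, was closest to GATA2 (distance 0.17). EPHB1 (0.20) and ZNF536 (0.29) were closest to GATA3. BRINP2 (0.60) and FIGLA (0.71) were closest to the GATA4 upstream promoter. ONECUT2 (0.22), with H3K27me3 of 174 and 199, and POU3F2 (0.33) were closest to GATA6. Within the family the smallest distances were 1.70 between GATA2 and GATA4 and 1.71 between GATA2 and GATA6, and the largest was 10.6 between GATA1 and GATA6. The nearest promoters were sought among all 20242, and each GATA gene has only 5 others in the family, so these distances cannot be set against each other.

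The H3K27me3 of the marked GATA genes was not seen at the nearest promoters that could be matched to the annotation. Within 100 kb of GATA2, C3orf27 and DNAJB8 had H3K27me3 of 7.23 and 3.42 in −Dox. Near the deposited GATA4 TSS, C8orf49 and NEIL2 had 2.28 and 6.09. The single neighbour of GATA6, RP11-595B24.2, had 1.14, and GATA3 had no other measured promoter within that distance. All 5 neighbours were thus below 20, while the GATA genes beside them ranged from 80.6 to 168. Since 11.0% of all promoters were above 20 for H3K27me3 in −Dox, neighbours below 20 are the usual case. Of the 5 neighbours of GATA1, SUV39H1, listed at 0, GLOD5, at 2.28, and HDAC6, at 3.04, were low in H3K27me3 like GATA1, while ERAS, 42285 bp away, and PCSK1N, 49014 bp away, were just above 20, at 20.9 and 21.3. HDAC6, 15476 bp from GATA1, was marked by H3K4me3 alone (33.3 in −Dox and 42.5 in +Dox).

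GATA proteins act together with other factors, and 22 partner genes were examined. Of these, 10 were above 20 for H3K27me3 in −Dox, against 11.0% of all promoters. Among the 10, 4 had a ratio below 0.66, against 0 of the 4 marked GATA genes. The share below 0.66 was 33.6% of all promoters with −Dox signal and 61.4% of bivalent ones. It was 26.6% of bivalent promoters with H3K27me3 of at least 100. The median log2 ratio was −0.28 over those 10 and −0.22 over the 4 GATA genes. The numbers are too small to separate the groups, and the difference was not tested.

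Of the FOG cofactors, which bind the GATA zinc finger, ZFPM2 was bivalent and its H3K27me3 was 78.3 in −Dox and 50.7 in +Dox (0.647, 0.427 to 0.980), and ZFPM1 was H3K4me3-only. Among 7 blood partners, TAL1, a partner of GATA1 and GATA2 in blood progenitors, was the 1 above 20, going from 110 to 76.4 (0.695, 0.489 to 0.967), while 3 were H3K4me3-only and 3 unmarked. RUNX1 was among the unmarked, with a deposited TSS 955366 bp from the canonical one. With both libraries given the same total, which multiplies H3K27me3 ratios by 1.18, neither upper bound would lie below 1.

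Among 5 cardiac partners, 2 were above 20. TBX5, which acts with GATA4 in the heart, went from 127 to 59.3 (0.468, 0.327 to 0.672), and its H3K4me3 from 30.5 to 81.3 (2.67, 1.69 to 4.15). HAND2, another heart factor, had 196 and 233 (1.19, 0.954 to 1.48). The TBX5 value was taken 2298 bp from its canonical TSS. Cardiac partners thus differed widely among themselves, and GATA6, at 1.09, was nearer to HAND2 than to TBX5.

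Among 4 endodermal partners, 3 were above 20. FOXA2, a pioneer factor of the endoderm, went from 114 to 26.8 (0.236, 0.144 to 0.386), the lowest ratio of all the partners above 20. Among 4 trophectodermal partners, 3 were above 20, from TFAP2C at 0.568 (0.237 to 1.34) to CDX2, a trophectoderm factor, at 1.29 (1.03 to 1.62). The ratios of GATA6 and GATA4 were above that of FOXA2, and those of GATA2 and GATA3 were between those of TFAP2C and CDX2.

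Other genes with a GATA-type zinc finger were examined beside the 6 GATA factors. Of 9, which include chromatin proteins of the GATAD and MTA families, none was above 20 for H3K27me3 in either condition, 8 were H3K4me3-only and ZGLP1 was unmarked. With 11.0% of all promoters above 20 for H3K27me3 in −Dox, 0 of 9 is near the background. Their H3K4me3 in −Dox ranged from 1.14 to 138, and their median was 64.7, against 26.8 over the GATA factors.

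Binding motifs of the family itself were counted in the 250 bases upstream of each deposited TSS, on both strands, as AGATAA or AGATAG or TGATAA or TGATAG. None was found for GATA1, GATA2, GATA3, GATA5 or GATA6, and 2 were found upstream of the GATA4 start. Of all 18243 matched promoters, 18.3% held at least 1, and the share was 9.85% among bivalent and 31.5% among unmarked promoters.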

How the data were processed

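H3K27me3 and H3K4me3 were measured by ChIP-seq, with 1 library for each of 2 marks in −Dox and +Dox. The authors sequenced single-end reads on a MiSeq and mapped them to hg19. The submitters' processing notes name Bowtie2 (no version given) and CASAVA 1.4. The deposited signal is ngs.plot coverage per library, scaled by the authors to reads and summed over 3 kb on each side of 1 TSS per gene. A scaling to density downstream of transcript ends is also named in the methods, and whether it applies here is not said. Input DNA was not used here.

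Values were whole multiples of a step per library (0.380, 0.373, 0.285 and 0.373 for H3K27me3 −Dox and +Dox and H3K4me3 −Dox and +Dox), from which about 2629351, 2682085, 3509244 and 2682085 reads per library and approximate reads per promoter were derived. Both +Dox files had the same step, and therefore imply the same read number. Whether this is a coincidence or a shared scaling constant is not known, and if it is shared, the read number of 1 of these libraries is wrong and the ratios of that mark are off by a common factor. A signal of 3 reads was 3.80, 3.74, 2.89 and 3.79. Intervals and these floors cover counting error only, since PCR copies were not marked by molecular identifiers and reads are thus not independent molecules.

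The ratio was +Dox/−Dox without a pseudocount. Classes used −Dox values above 20. The members, lists, level bands of 50 and 100 and the ratio limit of 1.5 were chosen with earlier results of these data known. All 6 GATA genes were named, with the 2 promoters most like each member above 20 for H3K27me3, the lowest and highest H3K27me3 ratio in each list among genes above 20, and genes within 100 kb. Some items that this rule names are not reported here. POU5F1, RUNX1, ZFPM1 and ZGLP1 were named for their starts or class after their values were seen. Positions and sequences came from GRCh37 (the assembly behind hg19) and GENCODE 44. Of the transcripts, 18244 (90.1%) were matched. Python 3.11, numpy 2.4.6, pandas 2.3.3, scipy 1.17.1 and matplotlib 3.10.9 were used, and the interval and step code was checked on simulated data. Alternatives were 2 scalings, pseudocounts, thresholds, class definitions and filters.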

Additional observations from a re-analysis of the deposited data

How the results depend on the processing

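No paired analysis was possible because there was a single library per group, which also means that none could be left out. Depth limits the values most at GATA1 and GATA5, with few H3K27me3 reads. The share of bivalent promoters with an H3K27me3 ratio below 0.66, 61.4%, was 49.0% with both libraries scaled to the same total, 55.8% with a pseudocount of 5, 54.2% with classes from the mean of both conditions and 59.0% with a threshold of 30. Over all promoters the share, 33.6%, was 25.9% with the same total, 32.3% with low promoters scaled to a ratio of 1, 19.3% and 30.2% with pseudocounts of 5 and 1, and 48.4% for a mean signal of at least 10. The number of GATA genes below 0.66 was 0 in each of these settings that applied to it. The number classed bivalent, 3, was 4 with a threshold of 10 and 2 with a threshold of 30. The median log2 H3K27me3 ratio of the family, −0.02, turned positive with the same total (0.21), with low promoters scaled (0.01) and without GATA4, whose start is not canonical (0.13), and was −0.17 without GATA1.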
